A study of Homo sapiens with 12 samples.

Results

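Complement is a plasma and cell surface defence system, described here through the 9 genes C3, CFB, C1R, C1S, CFI, SERPING1, CD46, CD55 and CD59. The genes were taken by symbol from the 58735 genes of the count table, and every one of them was found. The list was selected on earlier results of these same counts, and which comparison chose it is not recorded, so every value of the 9 genes is given as a description. Gene expression was measured by RNA-seq of poly(A) RNA in FDX2-iKO cells made from the human ovarian cancer line ES2. In these cells a doxycycline (Doxy)-driven, HA-tagged FDX2 that resists genome editing replaces the endogenous FDX2 gene, which was knocked out with Cas9, so that removing Doxy removes FDX2, a mitochondrial ferredoxin of Fe-S cluster synthesis. All 12 libraries carry both changes. The 4 conditions, with 3 libraries each, are 20% O2 + Doxy, 20% O2 wo Doxy (without Doxy), 3% O2 + Doxy and 3% O2 wo Doxy. Cells at 20% O2 were cultured for 6 days. Cells at 3% O2 spent 4 days at 20% O2 and then 3 days at 3% O2, so their culture lasted 7 days, and oxygen and the extra day cannot be told apart. The study works with clones grown from single cells and mainly with 1 clone. Since every library comes from the edited line, the effects of Doxy itself and of FDX2 loss cannot be told apart either. The study calls the replicates biological, the labels do not say how they were grown, and p-values measure the spread between these libraries.

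As background, complement is started by antibody (C1q with the proteases C1r and C1s), by sugars (lectins and MASPs) or on any unprotected surface (C3, factor B and factor D). These routes meet at the cleavage of C3 and end in a membrane pore built from C5 to C9. Most plasma complement is made in the liver, and nucleated cells protect themselves with membrane proteins: CD55 speeds the decay of the convertases, CD46 helps factor I to cut C3b and C4b, and CD59 blocks the assembly of the pore. Tumour cells, ovarian carcinoma cells among them, often carry these protectors.

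The libraries held 24958386 to 34313637 counts each. FDX2 itself, the targeted gene, had counts of 5, 2 and 6 in 20% O2 + Doxy, 9, 13 and 4 in 20% O2 wo Doxy, 2, 4 and 12 in 3% O2 + Doxy and 7, 7 and 5 in 3% O2 wo Doxy. Its exons share 972 of 1371 bases (70.9%) with AC011511.1 and AC011511.4 on the same strand, so these counts do not show whether FDX2 was lost. Of 10 epithelial and ovarian carcinoma markers, 6 stayed under a mean of 1 CPM (the usual depth-scaled unit, here a gene's counts relative to the library total multiplied by edgeR's TMM factor), EPCAM and CDH1 among them, while the keratins KRT7, KRT8 and KRT18 and all 4 mesenchymal markers were present. The 6 hepatocyte markers summed to 0.0764 to 0.293 CPM per library, and 6 of 7 macrophage and leukocyte markers were under 1 CPM. Replicate 1 of 20% O2 + Doxy, replicate 3 of 3% O2 + Doxy and replicate 1 of 3% O2 wo Doxy stood apart from the other 2 libraries of their condition.

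The 9 genes fell into 2 widely separated classes of abundance. The 3 membrane regulators had at least 752 counts in each library, and the 6 components and soluble regulators had at most 14. In RPKM, which divides CPM by exon length and was averaged over the 12 libraries, CD59 stood at 19.7, CD46 at 16.6 and CD55 at 6.01, levels above those of 85.7%, 83.0% and 61.7% of the tested genes. C1S stood at 0.0405, C1R at 0.0173, C3 at 0.0144, CFI at 0.0098, CFB at 0.00451 and SERPING1 at 0 RPKM. The order CD59, CD46, CD55, C1S held in 12 of 12 libraries. Below it the order was not stable, with C1R above C3 in 6 libraries and below it in 6. Only CD46, CD55, CD59 and C1S passed the filter on low counts and were tested (4 of 9, among 16891 genes tested).

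The 3 abundant regulators are shown here with the bases before their RefSeq start sites, since the comparisons below turn on CD55 moving where CD46 and CD59 did not pass the test. RefSeq promoter windows (GRCh38.p14) were given for 6 of the 9 genes, at 11 start sites, and not for C3, C1S and SERPING1. Capitals mark matches, on either strand, to the patterns ACGTG (hypoxia response element core), TGANTCA (AP-1), TGACGNCA (cAMP response element), GGG, any 2 bases, TT, any base and CC (kappaB), TTCNNNGAA (GAS), TTGCNNAA (C/EBP), GGGCGG (GC box), CCAAT and TATAAA, and no capitals of different patterns overlap in these stretches. The CD55 window lies wholly in exons that GENCODE 29 annotates from earlier starts, so 30 bases around its single kappaB match are given (chr1:207321452-207321481, + strand). The CD46 stretch is the whole window of 250 bases (chr1:207751788-207752037, + strand), and the CD59 stretch is the 238 bases outside annotated exons (chr11:33736492-33736729, - strand).
CD55: gagtcccagaGGGTGTTGCCagcgagctcc
CD46: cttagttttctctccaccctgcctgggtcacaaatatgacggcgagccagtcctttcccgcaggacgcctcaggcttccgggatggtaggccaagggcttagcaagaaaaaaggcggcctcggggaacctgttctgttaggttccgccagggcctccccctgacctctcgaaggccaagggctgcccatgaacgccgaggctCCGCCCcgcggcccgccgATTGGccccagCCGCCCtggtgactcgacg
CD59: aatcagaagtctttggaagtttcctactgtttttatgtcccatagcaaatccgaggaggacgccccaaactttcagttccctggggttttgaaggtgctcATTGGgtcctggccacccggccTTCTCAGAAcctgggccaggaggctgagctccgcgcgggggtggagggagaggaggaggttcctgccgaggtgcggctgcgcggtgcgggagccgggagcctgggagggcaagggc

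In the CD55 window, the kappaB match began 216 bases before the start and a GC box 46 bases before it, and the other 7 patterns had no match. The kappaB pattern was found in 5.07% of 35116 RefSeq promoter windows of the same length, and the GC box in 42.6%. The CD46 window held 2 GC boxes and a CCAAT box, the latter in 32.0% of all windows. CD59 had a GAS match 128 bases before its start, a pattern found in 6.57% of windows. None of these 3 windows, the most upstream one of each gene, held the hypoxia response element core, which was found in 18.5% of windows. CD46 has 1 further RefSeq start and CD59 has 3, and the window of the third CD59 start held that core 75 bases before it, while the window of the fourth held 2 AP-1 matches. These are matches of letters and were not tested for use in these cells. The kappaB pattern leaves several bases free, so the CD55 match need not be a kappaB site.

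CD55, decay accelerating factor (ENSG00000196352, chr1:207321376-207386804, + strand, GENCODE 29 on GRCh38), was the member that moved. It had counts of 908, 854 and 1178 in 20% O2 + Doxy, and 1605, 1503 and 1606 in 20% O2 wo Doxy. At 3% O2 the counts were 881, 757 and 841 with Doxy, and 858, 752 and 997 without it. In CPM the 20% O2 + Doxy libraries stood at 29.0, 30.9 and 34.6 and the 20% O2 wo Doxy libraries at 51.5, 47.5 and 52.2. All 3 libraries without Doxy at 20% O2 lay well above every other library in the series. The 3% O2 + Doxy libraries had 28.5, 28.9 and 27.2 CPM, and the 3% O2 wo Doxy libraries had 34.5, 29.8 and 31.1 CPM. At 3% O2 both conditions stood near the level of 20% O2 + Doxy. The 3% O2 + Doxy libraries lay just under those of 3% O2 wo Doxy and also just under those of 20% O2 + Doxy, without overlap.

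**Figure D1:**
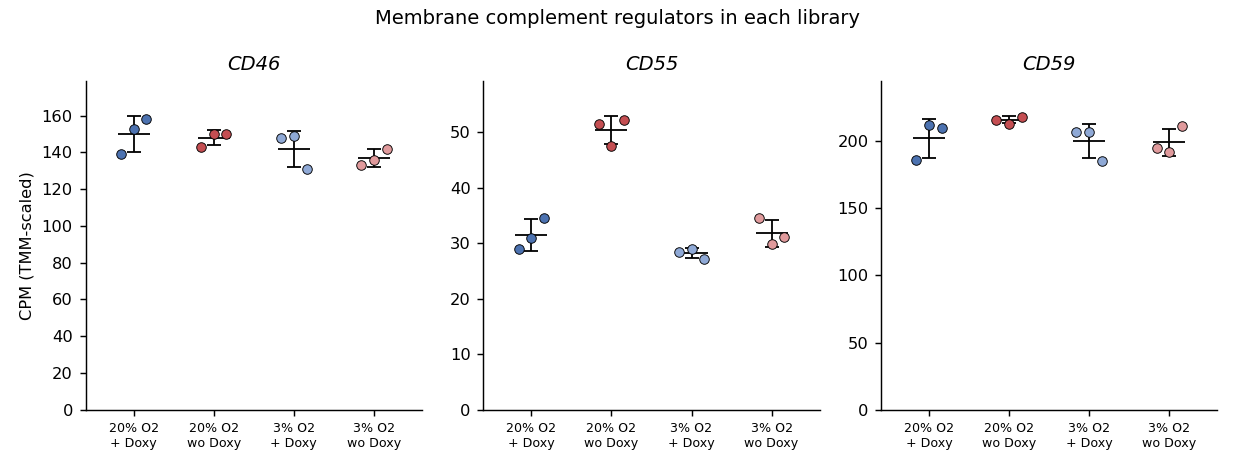
Levels of CD46, CD55 and CD59 in CPM (TMM-scaled, y axis starting at 0) in each library of the 4 conditions. Points are libraries, and the horizontal line and bars are the mean ± SD of 3. CD55 reaches 47.5 to 52.2 CPM in 20% O2 wo Doxy and lies between 27.2 and 34.6 CPM in the other 9 libraries, while CD46 and CD59 vary little between conditions.

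Expressed as means, CD55 was at 31.5 ± 2.84 CPM (SD, n = 3) in 20% O2 + Doxy and 50.4 ± 2.53 in 20% O2 wo Doxy. In bulk RNA, more RNA per cell and a larger share of expressing cells cannot be told apart. FDX2 loss at 20% O2 went with a 1.60-fold higher level (log2 fold change 0.68, SE 0.08, adjusted p = 6.48e-05, edgeR's quasi-likelihood test, adjusted by Benjamini-Hochberg over all tested genes). CD55 was the 1 member of 4 tested that was called (adjusted p under 0.05) in this comparison. Of all genes tested 35.3% were called, 17.6% as higher, so 1 in 4 is near the background. These shares over all genes moved with the processing, for this comparison between 16.3% and 48.4%. The CD55 call was kept in each of 23 alternative fits, with a log2 fold change from 0.51 to 0.75, and was lost under a 2-fold minimum.

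For FDX2 loss at 3% O2, CD55 stood at 28.2 ± 0.906 CPM with Doxy and 31.8 ± 2.43 CPM without it. Its log2 fold change was 0.17 (SE 0.08) and the adjusted p was 0.211, past the unadjusted but not the adjusted threshold (unadjusted p = 0.0478). None of the 4 tested members was called here by edgeR's quasi-likelihood test, against 7.31% of all genes (4.2% higher and 3.11% lower, and 0.00592% to 32.8% over the alternatives). Of the 4 members 1 had an unadjusted p under 0.05, and DESeq2 called none. With a correction for GC content, an alternative chosen after seeing the data, CD55 was called (log2 fold change 0.22, adjusted p = 0.0156). With the 3 libraries that stood apart left out, its log2 fold change was 0.05 (adjusted p = 0.626).

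The oxygen comparison gave the mirror image for CD55. Without Doxy, CD55 was lower at 3% than at 20% O2, with a log2 fold change of -0.66 (SE 0.08, adjusted p = 0.000198), a level 0.631 times that at 20% O2. It was again the only 1 of 4 members called, where 25.8% of all genes were called and 11.9% were called lower. The call was kept in all 23 alternative fits (log2 fold change -0.74 to -0.57) and lost under a 2-fold minimum. Between these conditions the replicate numbers were taken as pairing the libraries. The edgeR fit with the replicate number as a block, on the compared libraries only, also called CD46 (-0.14, adjusted p = 0.0477). With Doxy present, the change of CD55 from 20% to 3% O2 was -0.16 (SE 0.08, adjusted p = 0.427). No member was called in that comparison by edgeR or by DESeq2 (0 with an unadjusted p under 0.05), where 2.02% of all genes were called (1.63% higher and 0.385% lower). Both oxygen comparisons share their libraries with the FDX2-loss comparisons, so the 4 values of CD55 are not independent.

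The difference between the FDX2-loss responses, 3% minus 20% O2, was -0.50 for CD55 (SE 0.11, adjusted p = 0.0207), so the response was smaller at 3% O2. CD55 was the 1 member of 4 called, against 7.29% of all genes (4.08% lower and 3.21% higher). This call was the least stable of the 3, being kept in 13 of 23 alternative fits with adjusted p from 0.00111 to 0.188. It was lost, with adjusted p between 0.0517 and 0.0847, when any 1 of 7 libraries was left out: replicate 2 of 20% O2 + Doxy, replicates 1 and 3 of 20% O2 wo Doxy, replicates 1 and 2 of 3% O2 + Doxy, and replicates 2 and 3 of 3% O2 wo Doxy. It was also lost with the replicate number as a block (-0.50, adjusted p = 0.0528) and with replicates 1 and 2 of 20% O2 + Doxy left out (-0.36, adjusted p = 0.188). With the 3 libraries that stood apart left out, the value was -0.54 (adjusted p = 0.00111).

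CD46, membrane cofactor protein (ENSG00000117335, chr1:207752057-207795513, + strand), lies on the same chromosome arm as CD55 but did not pass the test in any comparison. Its libraries stood, in CPM, at 139, 153 and 158 in 20% O2 + Doxy and 143, 150 and 150 in 20% O2 wo Doxy. In 3% O2 + Doxy they were 148, 149 and 131, and in 3% O2 wo Doxy 133, 136 and 142. The conditions overlapped except for 3% O2 wo Doxy, whose highest library lay just under the lowest of 20% O2 wo Doxy. Its log2 fold changes were -0.02 (SE 0.06) for FDX2 loss at 20% O2 and -0.06 at 3% O2, and -0.07 and -0.11 for oxygen with and without Doxy. The last of these had an adjusted p of 0.226, became 0.0477 in a fit with the replicate block on the compared libraries only (log2 fold change -0.14), and turned to 0.04 with the GC correction.

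CD59, protectin (ENSG00000085063, chr11:33703010-33736491, - strand), was the most abundant member. Its libraries stood at 186, 212 and 210 CPM in 20% O2 + Doxy and 216, 213 and 218 CPM in 20% O2 wo Doxy. At 3% O2 they stood at 207, 207 and 185 CPM with Doxy and 195, 192 and 211 CPM without it. The 20% O2 wo Doxy libraries were the highest and did not overlap with the others, by a narrow margin. The log2 fold changes were 0.09 (SE 0.07, adjusted p = 0.307) for FDX2 loss at 20% O2, -0.00 at 3% O2, -0.02 for oxygen with Doxy and -0.11 without Doxy (adjusted p = 0.224). That last value was called only with the 3 libraries that stood apart left out (-0.11, adjusted p = 0.0476). In 20% O2 + Doxy and 3% O2 + Doxy the lowest CD59 library and the lowest CD46 library were the same, and both are libraries that stood apart. Without replicate 1 of 20% O2 + Doxy, the log2 fold change for FDX2 loss at 20% O2 was 0.0031 for CD59 and -0.10 for CD46. Without replicate 3 of 3% O2 + Doxy, that for FDX2 loss at 3% O2 was -0.05 for CD59 and -0.11 for CD46, and none of these values was called.

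Set against each other within a library, CD55 gained on the other membrane regulators. The ratio of CD55 to CD46 in CPM was 0.209, 0.203 and 0.219 in 20% O2 + Doxy and 0.359, 0.316 and 0.348 in 20% O2 wo Doxy. At 3% O2 it was 0.193, 0.195 and 0.208 with Doxy and 0.260, 0.219 and 0.219 without it. Against CD59 the mean ratio was 0.156 ± 0.00945, 0.233 ± 0.00924, 0.141 ± 0.00483 and 0.160 ± 0.0154 (SD, n = 3) in the same order of conditions. Since both genes of a ratio come from 1 library, these values do not depend on how libraries were scaled. As a description over 12 libraries, which share condition and scaling, the Pearson correlation of log2 CPM was 0.778 between CD46 and CD59, 0.65 between CD55 and CD59 and 0.333 between CD46 and CD55.

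The genes most like each member over the 12 libraries, among 10606 genes that averaged 5 CPM or more, were RNF14 (Pearson r = 0.994) and SLC41A2 (0.985) for CD55. For CD46 they were MBTD1 (0.966) and BLOC1S6 (0.954), and for CD59 PCMTD1 (0.958) and SKP1 (0.95). The best matches of C1S, which has few counts, reached only 0.833 (HOXD13) and 0.779 (NUTM2A-AS1). The same 12 libraries underlie all of these values.

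C1S, the protease that cuts C4 and C2 (ENSG00000182326, chr12:6988259-7071032, + strand), was the only activation component that was tested. Its counts were 5, 11 and 5 in 20% O2 + Doxy and 14, 9 and 10 in 20% O2 wo Doxy. They were 7, 3 and 8 in 3% O2 + Doxy and 4, 10 and 7 in 3% O2 wo Doxy. The conditions overlapped, except that the lowest library of 20% O2 wo Doxy (9) lay above the highest of 3% O2 + Doxy (8). The log2 fold change for FDX2 loss at 20% O2 was 0.60 with an SE of 0.48 (adjusted p = 0.361), and the other 4 comparisons lay between -0.45 and 0.34 with SEs of 0.48 to 0.71, so differences of this size were not distinguishable from the spread between replicates at this depth. Of its exon bases 3.54% are shared with EMG1.

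The remaining components were at the edge of detection. C1R, the protease partner of C1S (ENSG00000159403, chr12:7080199-7092607, - strand), had counts of 2, 3 and 3 in 20% O2 + Doxy, 5, 5 and 3 in 20% O2 wo Doxy, 1, 1 and 1 in 3% O2 + Doxy and 5, 3 and 4 in 3% O2 wo Doxy. The 3% O2 + Doxy libraries were the lowest for C1R, at 1 count each. The lowest count in the other conditions was 2, so these counts are too few to tell the conditions apart. C3, the central component whose cleavage all routes share (ENSG00000125730, chr19:6677704-6730562, - strand), had 1, 5 and 5, then 10, 3 and 5, then 2, 1 and 2, and lastly 3, 3 and 3 counts in the same order of conditions. Summed over libraries, C3 had 11 and 18 counts at 20% O2 with and without Doxy and 5 and 9 at 3% O2. No fold change is given for these genes, which were not tested.

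CFB, the protease of the alternative convertase (ENSG00000243649, chr6:31945650-31952084, + strand), had 8 counts in all, with 2 at most in a library. Its exons share 45.5% of their bases with C2 and AL645922.1 on the same strand, and AL645922.1, all of whose exons are shared, had 0 counts. CFI, the protease that inactivates C3b (ENSG00000205403, chr4:109740694-109802179, - strand), had 17 counts in 9 libraries: 0, 1 and 0 in 20% O2 + Doxy, 3, 0 and 3 in 20% O2 wo Doxy, 4, 1 and 2 in 3% O2 + Doxy and 1, 1 and 1 in 3% O2 wo Doxy. Of its exon bases 32.0% are shared with AC126283.2. Since shared bases can lower a count, the levels of CFB and CFI are uncertain. SERPING1, the inhibitor of C1r and C1s (ENSG00000149131, chr11:57597387-57614853, + strand), had 0 counts in all 12 libraries and no shared exon base. With 356846405 counts in all, this allows a level of up to 0.00841 CPM (3 counts), counting error only.

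**Figure D2:**
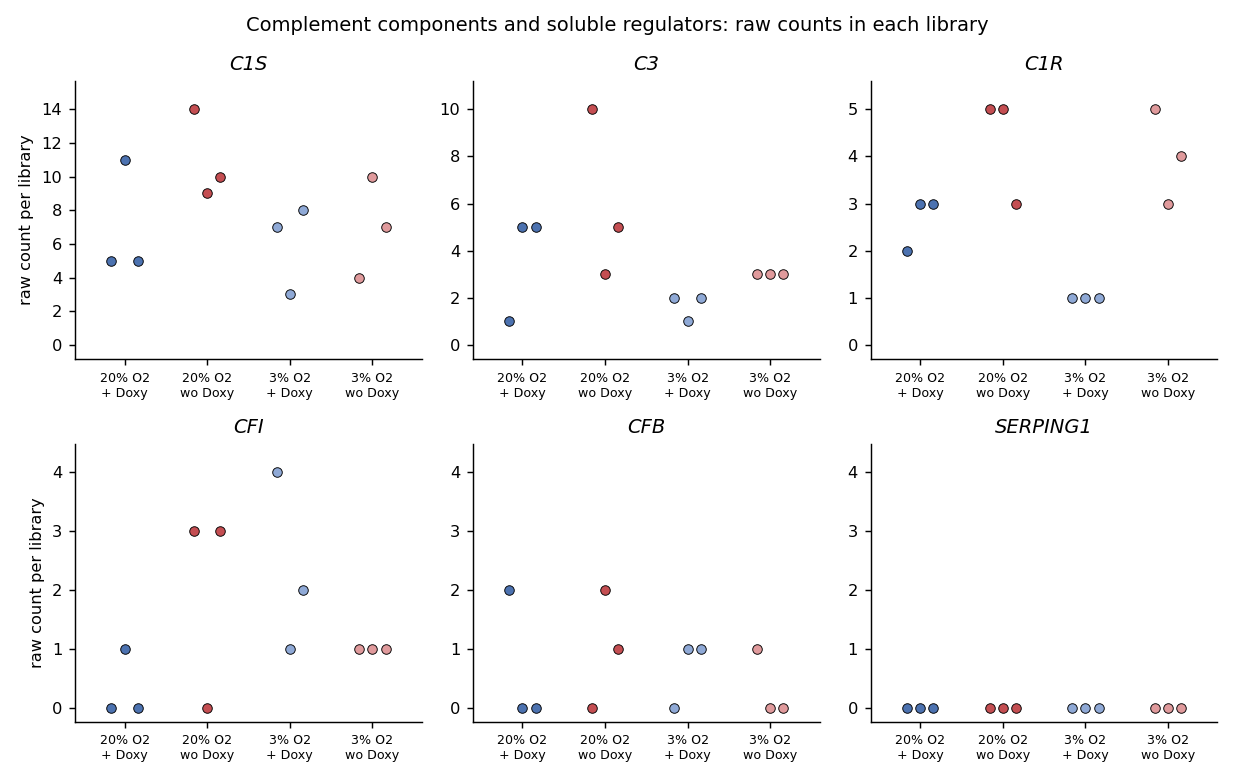
Raw counts of the 6 complement components and soluble regulators in each library (y axes differ between genes, and points are offset sideways by replicate). C1S reaches 14 counts, C3 10 and C1R 5, CFI and CFB stay at or under 4 and 2, and SERPING1 is at 0 in all 12 libraries.

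How the 9 genes compare with the rest of the system was asked of 49 further complement genes, listed from general knowledge without regard to how they moved. Of these, 14 had no count, 29 had at most 3 counts in every library, and 12 were tested. By role, 4 of 15 initiation genes were tested, 1 of 2 alternative pathway genes, 2 of 7 terminal genes, 2 of 11 soluble regulators and 3 of 14 membrane regulators and receptors.

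C1QBP, a mitochondrial protein that binds C1q (chr17:5432777-5448830), was the most abundant complement gene of the list and moved the opposite way to CD55. Its libraries had 372, 364 and 357 CPM in 20% O2 + Doxy and 262, 267 and 261 CPM in 20% O2 wo Doxy. At 3% O2 they had 337, 335 and 323 CPM with Doxy and 303, 308 and 310 CPM without it. No 2 conditions overlapped. C1QBP fell by 0.47 on the log2 scale with FDX2 loss at 20% O2 (adjusted p = 6.74e-06), changed by -0.11 at 3% O2 (adjusted p = 0.108), and the difference of 0.36 between these responses was called (SE 0.06, adjusted p = 0.00397). Without Doxy it was higher at 3% than at 20% O2 by 0.22 (adjusted p = 0.00241).

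ITGAX, the alpha chain of complement receptor 4 (chr16:31355134-31382997), had few counts. They were 22, 9 and 12 in 20% O2 + Doxy, 34, 42 and 25 in 20% O2 wo Doxy, 14, 18 and 19 in 3% O2 + Doxy and 22, 20 and 36 in 3% O2 wo Doxy. Its log2 fold change for FDX2 loss at 20% O2 was 1.22 (SE 0.33, adjusted p = 0.0148), a call that was lost when replicate 2 or 3 of 20% O2 + Doxy or replicate 2 of 20% O2 wo Doxy was left out (1.03 to 1.05, adjusted p = 0.0534 to 0.0576). With C1QBP it makes 2 of 12 listed genes called in that comparison, 1 higher and 1 lower, against 35.3% of all genes. At 3% O2 none of the 12 was called by edgeR's quasi-likelihood test, against 7.31% of all genes, 1 had an unadjusted p under 0.05, and DESeq2 called 1 (C1QBP).

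In 3% against 20% O2 without Doxy, 4 of the 12 genes were called, all higher, against 25.8% of all genes called (13.9% higher). Clusterin (CLU), a fluid phase inhibitor of the terminal pore, rose from 7.96, 8.19 and 7.77 CPM to 17.3, 16.8 and 14.9 CPM (log2 fold change 1.03, SE 0.15, adjusted p = 0.000905). Properdin (CFP), which stabilises the alternative convertase, had counts of 13, 12 and 19 at 20% O2 and 25, 27 and 26 at 3% O2 (1.02, SE 0.25, adjusted p = 0.0135). The CFP call was lost without replicate 1 or 2 of 20% O2 wo Doxy or replicate 2 of 3% O2 wo Doxy (0.87 to 0.94, adjusted p = 0.0501 to 0.0566) and with the replicate block on the compared libraries only (1.00, adjusted p = 0.0821). ITGB2, the beta chain of complement receptors 3 and 4, went from 80.7, 78.8 and 76.8 CPM to 99.9, 130 and 113 CPM (0.54, SE 0.14, adjusted p = 0.0183), a call lost without replicate 3 of 20% O2 wo Doxy or replicate 2 of 3% O2 wo Doxy (0.51 and 0.44, adjusted p = 0.0566 and 0.0747). Over 23 alternative fits the ITGB2 value ranged from 0.257 to 0.629, and 21 of these kept the call. The fourth gene was C1QBP.

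**Figure D3:**
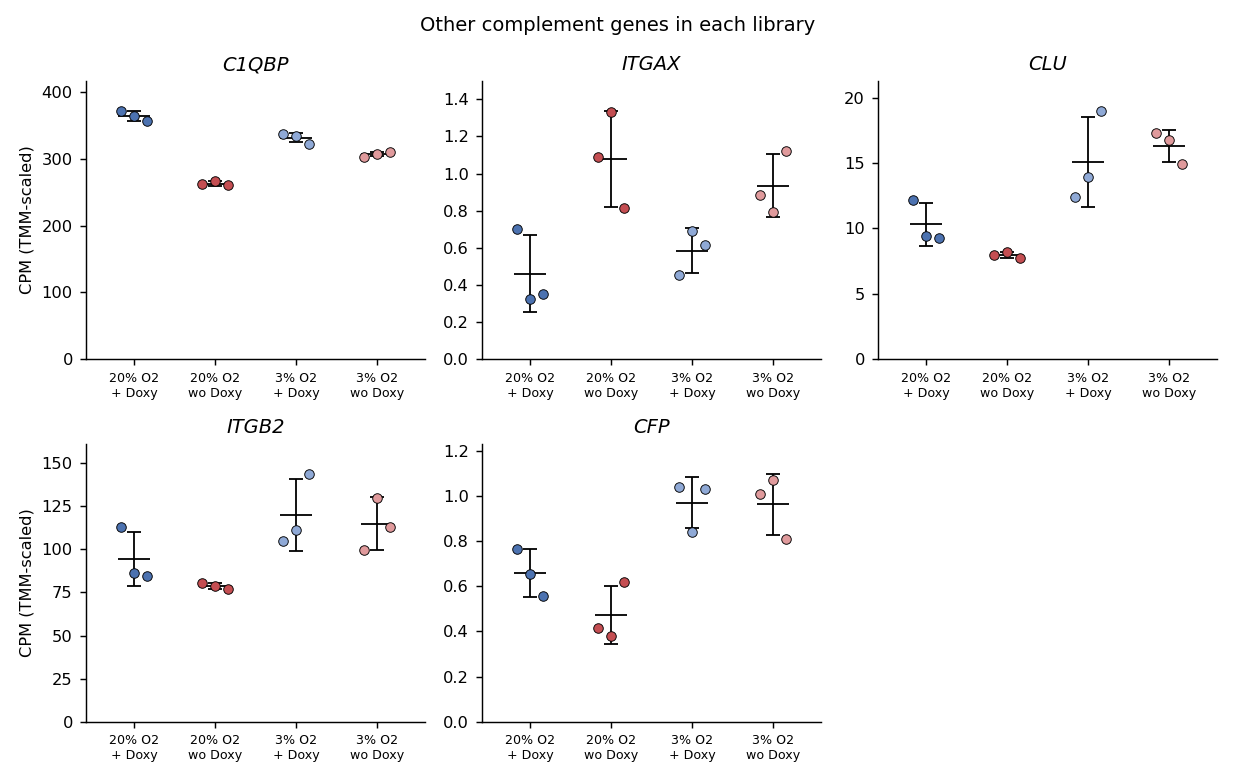
Levels in CPM (TMM-scaled, y axes starting at 0 and differing between genes) of 5 further complement genes called in at least 1 comparison. Points are libraries, and the horizontal line and bars are the mean ± SD of 3. C1QBP shows no overlap between conditions, and CLU is at 14.9 to 17.3 CPM in 3% O2 wo Doxy against 7.77 to 8.19 CPM in 20% O2 wo Doxy.

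With Doxy present, none of the 12 genes was called for 3% against 20% O2 by edgeR's quasi-likelihood test, against 2.02% of all genes. An unadjusted p under 0.05 was found for 4 of the 12 and for 2193 of the 16891 genes tested. DESeq2 called 2 of the 12 (C1QBP and CLU) and 629 of all genes. CLU stood at 12.2, 9.42 and 9.26 CPM in 20% O2 + Doxy and 12.4, 13.9 and 19.0 CPM in 3% O2 + Doxy. In both conditions its highest library was the one that stood apart. Its log2 fold change was 0.55 (SE 0.15, adjusted p = 0.105) and without replicate 1 of 20% O2 + Doxy it was 0.67 (adjusted p = 0.0466). Without replicate 3 of 3% O2 + Doxy it was 0.35 (adjusted p = 0.332). For ITGB2, 3 of 23 alternative fits gave a call with Doxy present, all in settings added after seeing the data. By edgeR's quasi-likelihood test these included the GC correction (0.33, adjusted p = 0.000261). They also included the removal of the 3 libraries that stood apart (0.32, adjusted p = 0.00711). ITGB2 is also an integrin chain of leukocytes, and ITGAM, the alpha chain of complement receptor 3, had 6 counts over the 12 libraries together. The 7 macrophage and leukocyte markers, of which only LYZ passed 1 CPM, summed to 1.34 to 2.14 CPM in 20% O2 + Doxy, 1.68 to 1.89 in 20% O2 wo Doxy, 2.46 to 2.97 in 3% O2 + Doxy and 2.96 to 4.03 in 3% O2 wo Doxy, and their part in the ITGB2 values was not tested. The 4 endothelial markers summed to 24.0 to 30.1, 28.7 to 29.9, 31.5 to 39.3 and 43.1 to 54.4 CPM in the same order of conditions, nearly all of it from CDH5, while PECAM1 and VWF had at most 5 and 6 counts in a library. Their part in the genes called higher at 3% O2 without Doxy was not tested. The difference of the FDX2-loss responses was called for C1QBP alone among the 12 genes, against 7.29% of all genes.

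**Figure D4:**
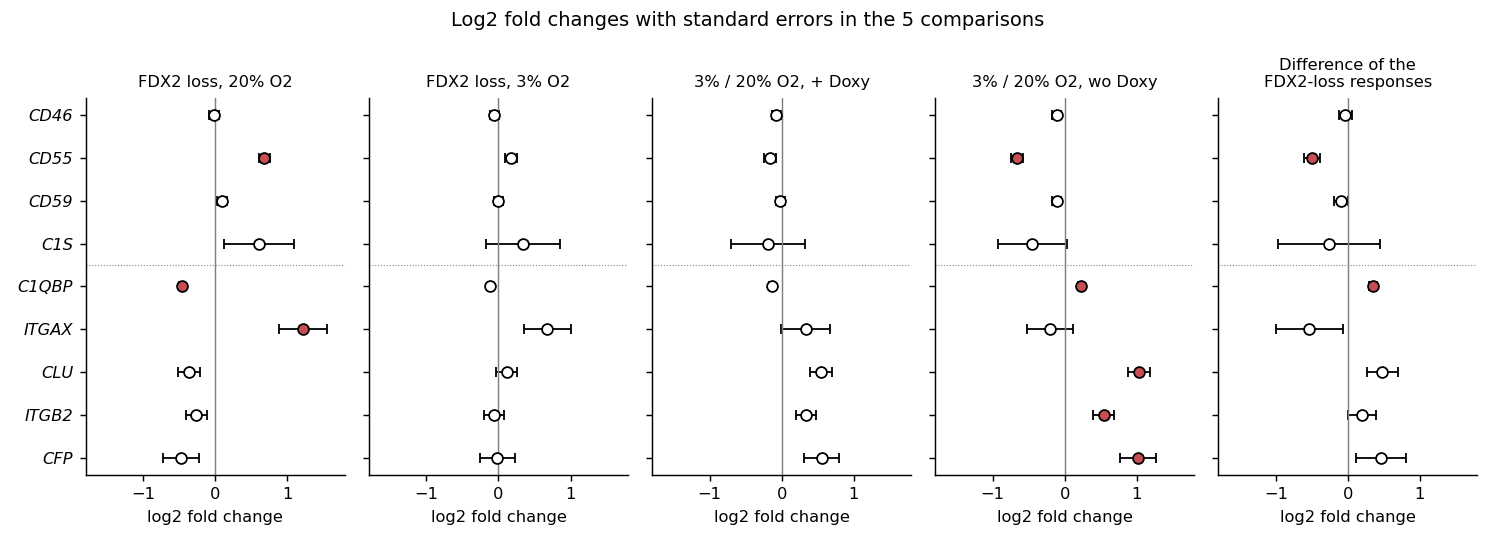
Log2 fold changes (x axis) with their standard errors (bars) of the 4 tested members, above the dotted line, and of 5 further complement genes in the 5 comparisons. Filled points passed an adjusted p under 0.05 in edgeR's quasi-likelihood test. CD55 is filled at 0.68, -0.66 and -0.50, and CD46, CD59 and C1S are open in all 5 comparisons.

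Complement genes are known to respond to interleukins, interferon and the factors downstream of them, so 17 such inducers were set beside them. Of the 13 tested, 5 rose and 1 fell with FDX2 loss at 20% O2, where 35.3% of all genes were called and 17.6% were higher. The largest changes among those called were of IL1A (log2 fold change 2.73, from 21, 21 and 26 counts to 149, 171 and 136), IL1B (1.72), LIF (0.93) and CEBPB (0.74). CEBPB passed only narrowly (adjusted p = 0.0497, edgeR's quasi-likelihood test). The 1 gene that fell was NFKB1 (-0.28, adjusted p = 0.00137), a smaller change than these 4. At 3% O2 only IL1B was called (0.67, adjusted p = 0.000388), 1 of 13 against 7.31%. Of the 13, 6 had an unadjusted p under 0.05 for FDX2 loss at 3% O2, as had 3901 of the 16891 genes tested. CEBPB, not called there, had a log2 fold change of 0.66 (adjusted p = 0.168), near its value at 20% O2. In 3% against 20% O2 without Doxy 4 were called lower, IL1A (-2.02), IL1B (-1.03), IL6ST (-0.35) and LIF (-0.34), where 11.9% of all genes were called lower. With Doxy present none was called, against 2.02% of all genes. An unadjusted p under 0.05 was found for 1 of the 13 and for 2193 of the 16891 genes tested. CD55 and IL1B were thus both highest in 20% O2 wo Doxy, while C3, CFB and SERPING1 stayed at or under 10 counts in every library. Whether these changes are linked was not tested.

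Of 16 acute phase genes, mainly liver products like plasma complement, only SERPINA1 and PTX3 were tested. SERPINA1, the inhibitor of neutrophil elastase, went the opposite way to CD55, with 87.6, 91.3 and 89.7 CPM in 20% O2 + Doxy and 39.5, 41.1 and 39.9 CPM in 20% O2 wo Doxy (log2 fold change -1.16, adjusted p = 1.72e-06). Its libraries at 3% O2 had 137, 145 and 174 CPM with Doxy and 101, 94.7 and 98.0 CPM without it (-0.64, adjusted p = 0.000989). PTX3, a pattern recognition protein that binds C1q and is made mainly outside the liver, was called only for FDX2 loss at 3% O2 (0.31, adjusted p = 0.0195). In 1 library, replicate 1 of 3% O2 wo Doxy, the liver genes MASP2 and CP had 44 and 46 counts, against at most 13 and 19 in the other 11 libraries, while the hepatocyte markers summed to 0.293 CPM or less in all libraries.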

How the data were processed

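RNA-seq counts per gene were deposited for 12 libraries as a single table. Per the labels, the authors selected mRNA with poly-T beads, aligned the reads to GRCh38 with STAR and counted them with featureCounts, and the raw counts were deposited without normalization. Versions, annotation, strand setting and the handling of reads with several alignments are not given in the sources used here. The submitters state that 1 mate file was lost for replicates 1 and 2 of 20% O2 + Doxy, whose counts were kept. All 58735 identifiers are those of GENCODE 29, which gave positions and exon overlaps. Of 1139 genes whose exons are wholly shared on the same strand, 1 reached 10 counts in a library, against 273 of 710 shared only with the opposite strand, so opposite-strand overlaps did not remove reads as same-strand overlaps did.

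Genes were tested with edgeR 4.0.16 under R 4.3.3 (filterByExpr, minimum count 10 and minimum total 15; TMM; quasi-likelihood model with 4 condition means and 8 residual degrees of freedom), which tested 16891 of 32966 genes with a count. A gene was called at a Benjamini-Hochberg adjusted p under 0.05 over all genes tested. Intervals and floors cover counting error only, and the common biological coefficient of variation was 16.3%. The code was tested on simulated counts. The members and lists were chosen with earlier results of these data known, so calls on members are a description and no independent support. All members, every tested gene of the 49 further complement genes, up to 4 called genes of each context list with the largest change and a mean of at least 1 CPM, and the 2 genes most correlated with each tested member could be named. MASP2, CP, ITGAM and NFKB1 were named after their values were seen. A result on 1 gene of each of 2 context lists is not reported here, and counts over those lists are without it.

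Replicate libraries differed beyond sampling noise (mean chi-square per degree of freedom at least 2.47), so none was counted as a duplicate. Same-numbered libraries deviated together between 20% O2 wo Doxy and 3% O2 wo Doxy (correlations 0.255 to 0.406, other pairs -0.474 to 0.0921), where the numbers were taken as pairing the libraries from the data alone, and between no other 2 conditions. Alternatives were DESeq2 1.42.0 (size factors and Wald test), other filters, a replicate block, the compared libraries only, each library left out in turn, replicates 1 and 2 of 20% O2 + Doxy left out, a 2-fold minimum and an adjusted p under 0.01. A GC correction, alone and with the block, and the removal of 3 libraries that stood apart were added after seeing the data.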

Additional observations from a re-analysis of the deposited data

Results flagged for a closer look

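Counted here were 16 tested genes: the tested members and the list genes named because they were called in some comparison. NFKB1 and the other genes named in the text were not counted. In 6 of the 16 the response to FDX2 loss differed between 3% and 20% O2, against 7.29% of all genes. The test was that of the difference itself (edgeR's quasi-likelihood test, Benjamini-Hochberg adjusted p under 0.05, 3 libraries per condition). The log2 difference, 3% minus 20% O2, was -0.50 for CD55, a call lost in 10 of 23 alternative fits, and 0.36 for C1QBP among the complement genes. Among the inducers it was -2.30 for IL1A, -1.05 for IL1B and -0.75 for LIF. SERPINA1, with a response below 0 at both oxygen levels, had a difference of 0.52. In all 6 genes the estimated response had the same sign at both oxygen levels and a smaller size at 3% O2. At 3% O2 it was called for IL1B and SERPINA1 only. For CD55, C1QBP, IL1A and LIF it was not called there, so its sign at 3% O2 is uncertain. Since the genes were chosen by their calls, the shared pattern is a description.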

How the results depend on the processing

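Of 540 values with 1 library left out, 504 kept their direction and side of the threshold, as did 484 of 534 under other settings. The causes of the changes below were not tested, except where fewer libraries or a stricter rule define the setting.

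The number of members called in the main analysis was 1, 0, 0, 1 and 1 for FDX2 loss at 20% and at 3% O2, oxygen with Doxy, oxygen without Doxy and the difference of the FDX2-loss responses. With 1 library left out it stayed at these values, except for the difference (0 to 1). A 2-fold minimum gave 0 in each comparison, and an adjusted p under 0.01 or the removal of replicates 1 and 2 of 20% O2 + Doxy gave 0 for the difference. The GC correction, with or without the block, gave 1 for FDX2 loss at 3% O2. The removal of the 3 libraries that stood apart gave 2 for oxygen without Doxy.

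With the replicate number as a block, the difference of CD55 was -0.50 (adjusted p = 0.0528), giving 0 members called there, in both block fits. The block on the compared libraries only gave 2 members for oxygen without Doxy. At 3% O2 and between the other conditions the libraries share only a number, so these are not paired values. Over all genes, the calls went from 5961, 1235, 341, 4360 and 1231 to 5079, 676, 218, 3203 and 615 with the block, and to 6028, 1, 12, 4866 and 615 with the block on the compared libraries only. The block changed no other count of calls on the members or the further complement genes by over 1.5 times. With 1 library left out, calls over all genes ranged from 4444 to 6671, 608 to 1757, 191 to 427, 2359 to 5259 and 521 to 2246, and 0, 4, 3, 4 and 8 of the 12 libraries moved them by over 1.5 times, so the background shares in the text hold for the main analysis alone.

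The further complement genes called numbered 2, 0, 0, 4 and 1 in the same order. With 1 library left out they numbered 1 to 4, 0, 0 to 1, 2 to 4 and 1 to 2. The GC correction gave 4, 1 and 2 for the first 3 comparisons, and 2 for oxygen with Doxy when joined with the block. The removal of the 3 libraries gave 6, 2, 3, 6 and 4. DESeq2's Wald test gave 1 for FDX2 loss at 3% O2 and 2 for oxygen with Doxy. The stricter p and the 2-fold minimum each gave 1 for FDX2 loss at 20% O2 and 2 for oxygen without Doxy, a minimum of 10 counts in every library gave 1 for FDX2 loss at 20% O2, the 2-fold minimum gave 0 for the difference, and the removal of replicates 1 and 2 of 20% O2 + Doxy gave 0 for the difference.

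No log2 fold change that changed sign was called in the main analysis or in the setting that changed it. Under another setting 3 of them were called: CD46 for oxygen without Doxy with the block on the compared libraries (-0.142), ITGB2 for FDX2 loss at 3% O2 with the GC correction (-0.127) and ITGB2 for the difference without the 3 libraries (0.288). With the GC correction alone and with the block, CD46 turned to 0.0358 and 0.0358 for oxygen without Doxy and to 0.0426 and 0.0427 for the difference, CD59 to 0.0245 and 0.0242 for FDX2 loss at 3% O2, and ITGB2 to -0.0699 and -0.07 for the difference. Without the 3 libraries C1S turned to 0.338 for the difference and ITGB2 to 0.139 for FDX2 loss at 3% O2. Without replicates 1 and 2 of 20% O2 + Doxy, C1S turned to 0.4265 for oxygen with Doxy and CD46 to 0.0443 for the difference. With 1 library left out, ranges that crossed 0 for FDX2 loss at 3% O2 were -0.0772 to 0.56 for C1S, -0.0547 to 0.0242 for CD59, -0.012 to 0.31 for CLU, -0.167 to 0.0869 for ITGB2 and -0.107 to 0.0958 for CFP. For oxygen with Doxy they were -0.441 to 0.391 for C1S and -0.0973 to 0.034 for CD59. CD46 ranged from -0.101 to 0.0203 for FDX2 loss at 20% O2 and from -0.0943 to 0.0207 for the difference.

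With at least 10 counts required in every library, C1S and ITGAX were not tested. C3, CFB, CFI, C1R and SERPING1 had too few counts to test, and for C1S the counts set SEs of 0.48 or more. The libraries come from 1 edited line, FDX2 loss cannot be read from its own counts, and 3 libraries per condition limit what the smaller differences of CD46 and CD59 can show.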
